A study of Homo sapiens with 28 samples.

Results

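Genes of the Wnt/beta-catenin pathway were followed through a bulk RNA-seq experiment in LNCaP, an established androgen-responsive prostate cancer cell line. The 10 members were the transcriptional coactivator CTNNB1 (beta-catenin), the TCF/LEF DNA-binding partners LEF1, TCF7, TCF7L1 and TCF7L2, the scaffold AXIN1, and the feedback genes AXIN2, NKD1, RNF43 and ZNRF3. The genes were taken by symbol from the count table, from a list drawn up with earlier results of these data known, and all 10 were found among its 61815 human genes. All cells were wild type and were deprived of steroids with charcoal-stripped serum before treatment. In a 24 h experiment with 3 libraries per group, cells received vehicle (0.1% DMSO), 1 µM Senexin B, 0.1 nM R1881, or R1881 and Senexin B together. In a 72 h experiment with 4 libraries per group, they received vehicle (0.1% DMSO), 500 nM SNX631, 1 nM R1881, or R1881 and SNX631 together. R1881 is a synthetic androgen, and Senexin B and SNX631 inhibit CDK8 and CDK19, the kinases of the Mediator complex. The dose of Senexin B is the one on the sample labels, and the text of the study gives another. Time, androgen dose and inhibitor changed together between the experiments, so that values from 24 h and 72 h are given side by side and the inhibitors are not compared.

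In Wnt signalling, a secreted Wnt protein binds a Frizzled receptor and an LRP co-receptor at the cell surface. Without it, a destruction complex built on AXIN proteins marks beta-catenin for degradation, and with it beta-catenin accumulates, enters the nucleus and binds TCF/LEF factors at target genes. Several targets dampen the signal: AXIN2 rebuilds the destruction complex, NKD1 binds Dishevelled, and the membrane ubiquitin ligases RNF43 and ZNRF3 remove Frizzled receptors. In prostate cells beta-catenin is also known to bind the androgen receptor. A change in the mRNA of beta-catenin says little about the pathway's activity, which is set largely through its protein.

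Each library held between 9846595 and 33809419 counts, the highest being vehicle replicate 3 at 24 h and the next highest holding 15248512. Values are CPM (counts scaled to library size) scaled by TMM, a correction for RNA composition, and a gene was called where edgeR's quasi-likelihood test gave a Benjamini-Hochberg FDR below 0.01 and a fold change above 1.5, the limits of the study. KLK3, the gene of prostate-specific antigen, was at 1.44 CPM in vehicle at both times and rose to 110 ± 4.18 (SD, n = 3) at 24 h and 138 ± 7.58 (SD, n = 4) at 72 h with R1881. The 8 markers fixed for the line summed to between 2738 and 4914 CPM per group. The 3 basal epithelial markers summed to at most 0.352 CPM, and KRT5 was at 0 in every library. The 5 markers of stroma and blood summed to 27.9 CPM in vehicle, 21.9 with Senexin B, 16 with R1881 and 10.4 with both at 24 h, and to 34.2, 31.5, 22.5 and 14.7 in the same order at 72 h. COL1A1 and COL3A1 made up nearly all of these sums, and the other 3 markers, DCN, PECAM1 and PTPRC, summed to at most 0.122 CPM in any group.

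The promoters of the members called lower with R1881 without inhibitor in both experiments are shown first. RefSeq's promoter table (GRCh38.p14) holds windows from 250 bases before to 50 bases after a transcription start for 7 of the 10 members, with 11 windows in all. AXIN2, NKD1 and ZNRF3 had no entry there. Capitals mark AGAACA, the short repeat unit of androgen receptor motifs, and CTTTGAT or CTTTGTT, core letters of TCF/LEF motifs, on either strand. For RNF43 and TCF7L2, which have several windows, the most upstream is shown. The windows lie at chr4:108166252-108166551 (minus strand) for LEF1, chr17:58417485-58417784 (minus strand) for RNF43 and chr10:112949997-112950296 (plus strand) for TCF7L2. The LEF1 start in this table lies 2655 bases inside the gene span of GENCODE 29.
LEF1: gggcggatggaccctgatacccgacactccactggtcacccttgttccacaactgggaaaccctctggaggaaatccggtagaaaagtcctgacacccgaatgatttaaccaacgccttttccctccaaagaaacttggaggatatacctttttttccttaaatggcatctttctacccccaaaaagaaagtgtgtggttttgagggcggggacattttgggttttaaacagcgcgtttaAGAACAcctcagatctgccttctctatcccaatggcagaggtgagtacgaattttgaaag
RNF43: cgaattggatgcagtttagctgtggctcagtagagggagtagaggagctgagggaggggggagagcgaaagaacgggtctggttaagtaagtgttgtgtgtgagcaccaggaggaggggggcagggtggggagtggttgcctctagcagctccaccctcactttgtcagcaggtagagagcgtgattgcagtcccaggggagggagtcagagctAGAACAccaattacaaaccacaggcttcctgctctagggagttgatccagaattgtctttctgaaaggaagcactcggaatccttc
TCF7L2: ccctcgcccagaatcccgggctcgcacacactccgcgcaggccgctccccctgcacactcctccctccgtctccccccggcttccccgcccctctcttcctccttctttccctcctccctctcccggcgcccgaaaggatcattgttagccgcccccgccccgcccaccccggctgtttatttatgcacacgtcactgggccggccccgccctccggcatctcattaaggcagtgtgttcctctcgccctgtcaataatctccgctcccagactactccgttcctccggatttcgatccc
AGAACA stood 10 bases before the start in LEF1 and 36 bases before it in RNF43. The TCF7L2 window shown held none of the 3 motifs. A second TCF7L2 window, at chr10:113126383-113126682, held CTTTGTT overlapping AGAACA, and 1 of the TCF7 windows held CTTTGTT and AGAACA apart from each other. Of 35116 promoter windows in the table, 14.8% held AGAACA and 7.61% held CTTTGAT or CTTTGTT.

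Of the 10 members, 8 passed the filter on low counts in both experiments. Per kilobase of exon, with exon lengths from GENCODE 29, the level in vehicle at 24 h was 44.5 RPKM for CTNNB1, by far the most abundant member. AXIN1 followed at 4.65 RPKM, ZNRF3 at 3.63 and LEF1 at 2.28. TCF7L2 was at 1.81 RPKM, AXIN2 at 1.2, RNF43 at 1.05 and NKD1 at 0.342. TCF7 was at 0.0445 and TCF7L1 at 0.032 RPKM, below LEF1 and TCF7L2 in every group, and the order of these rare factors was the reverse in vehicle at 72 h (0.0246 and 0.0514 RPKM) and with either inhibitor alone. TCF7 had 2 to 14 counts and TCF7L1 0 to 9 counts per library, and neither was tested in the fit over all genes. On GRCh38, CTNNB1 spans chr3:41194741-41260096, TCF7 chr5:134114711-134151865, TCF7L1 chr2:85133410-85310388, TCF7L2 chr10:112950250-113167678, NKD1 chr16:50548330-50649249 and ZNRF3 chr22:28883592-29057487 on the plus strand. AXIN1 spans chr16:287440-352673, AXIN2 chr17:65528563-65561647 and RNF43 chr17:58352500-58417595 on the minus strand, and all 10 are protein-coding.

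The first comparison asked how androgen changed these genes without inhibitor. LEF1, TCF7L2 and RNF43 fell in both experiments and NKD1 was called lower at 72 h, while no member was called higher. These were 3 of 8 members called at 24 h, where 19% of all 15948 genes were called, 9.19% lower and 9.81% higher. At 72 h 4 of 8 were called, where 19.8% of all 16074 genes were called, 10.1% lower and 9.7% higher. The median log2 fold change of the 8 members was -0.15 at 24 h and -0.45 at 72 h, beside -0.016 and -0.014 over all genes tested. In bulk RNA, fewer cells with a transcript and less of it per cell cannot be told apart.

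LEF1, the TCF/LEF factor with the highest level, moved most. At 24 h it was at 11.2, 12.5 and 13 CPM in vehicle and at 5.59, 6.17 and 5.01 CPM with R1881. At 72 h the vehicle libraries held 16.2, 16.2, 19 and 17.8 CPM and the R1881 libraries 8.04, 6.79, 6.76 and 6.84 CPM. The groups did not overlap at either time. The log2 fold change was -1.16 ± 0.124 (SE; FDR = 3.88e-10) at 24 h, a level 2.23-fold lower, and -1.29 ± 0.0917 (FDR = 9.47e-16) at 72 h, 2.44-fold lower. LEF1 lies at chr4:108047545-108168956 on the minus strand (GRCh38), and 5.2% of its exon bases overlap the antisense gene LEF1-AS1, which did not exceed 0.595 CPM in any library.

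RNF43, the ligase that removes Frizzled receptors, also fell. It was at 8.34, 8.17 and 7.04 CPM in vehicle and at 5.14, 4.58 and 4.66 CPM with R1881 at 24 h. At 72 h it was at 10.1, 8.99, 7.28 and 9.58 CPM in vehicle and at 3.55, 4.39, 4.27 and 4.38 CPM with R1881. Every R1881 library was below every vehicle library of its experiment. The log2 fold change was -0.67 ± 0.129 (SE; FDR = 3.2e-05) and -1.11 ± 0.123 (FDR = 2.26e-10). The level of RNF43 is uncertain, because 57.6% of its exon bases are shared with a read-through gene on the same strand, ENSG00000285897, and 20.3% with the antisense gene TSPOAP1-AS1. RNF43 had fractional counts in 12 of 28 libraries. The read-through gene itself averaged 35.1 CPM in vehicle and 29.7 CPM with R1881 at 24 h, and 35.1 and 29.4 CPM at 72 h. TSPOAP1-AS1 averaged 3.95 and 2.82 CPM at 24 h and 3.68 and 2.09 CPM at 72 h, so that both neighbours were also lower with R1881, and their part in the RNF43 values was not tested.

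TCF7L2, a TCF factor that also encodes repressing isoforms, was at 12.6, 12.5 and 11.6 CPM in vehicle and at 6.14, 7.93 and 5.78 CPM with R1881 at 24 h. At 72 h it was at 11.1, 10.5, 8.99 and 10.8 CPM against 5.96, 6.87, 5.16 and 6.84 CPM. The groups again did not overlap. The log2 fold changes were -0.87 ± 0.112 (SE; FDR = 3.24e-08) and -0.74 ± 0.112 (FDR = 3.21e-07).

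NKD1, the Dishevelled-binding inhibitor, was at 6.08, 8.76, 6.25 and 6.78 CPM in vehicle and at 3.97, 4.06, 4.9 and 5.35 CPM with R1881 at 72 h. The groups did not overlap, and the log2 fold change was -0.61 ± 0.142 (SE; FDR = 0.000259). This call stood at the fold limit and was lost without vehicle replicate 2 (log2 fold change -0.48), R1881 replicate 1 (-0.56) or R1881 replicate 2 (-0.56), which leaves 3 members called. At 24 h NKD1 was at 6.19, 5.42 and 6.27 CPM in vehicle and at 5.69, 4.05 and 6.04 CPM with R1881. These ranges overlapped, and the log2 fold change of -0.20 had a 95% confidence interval from -0.49 to 0.098 (FDR = 0.242).

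**Figure D1:**
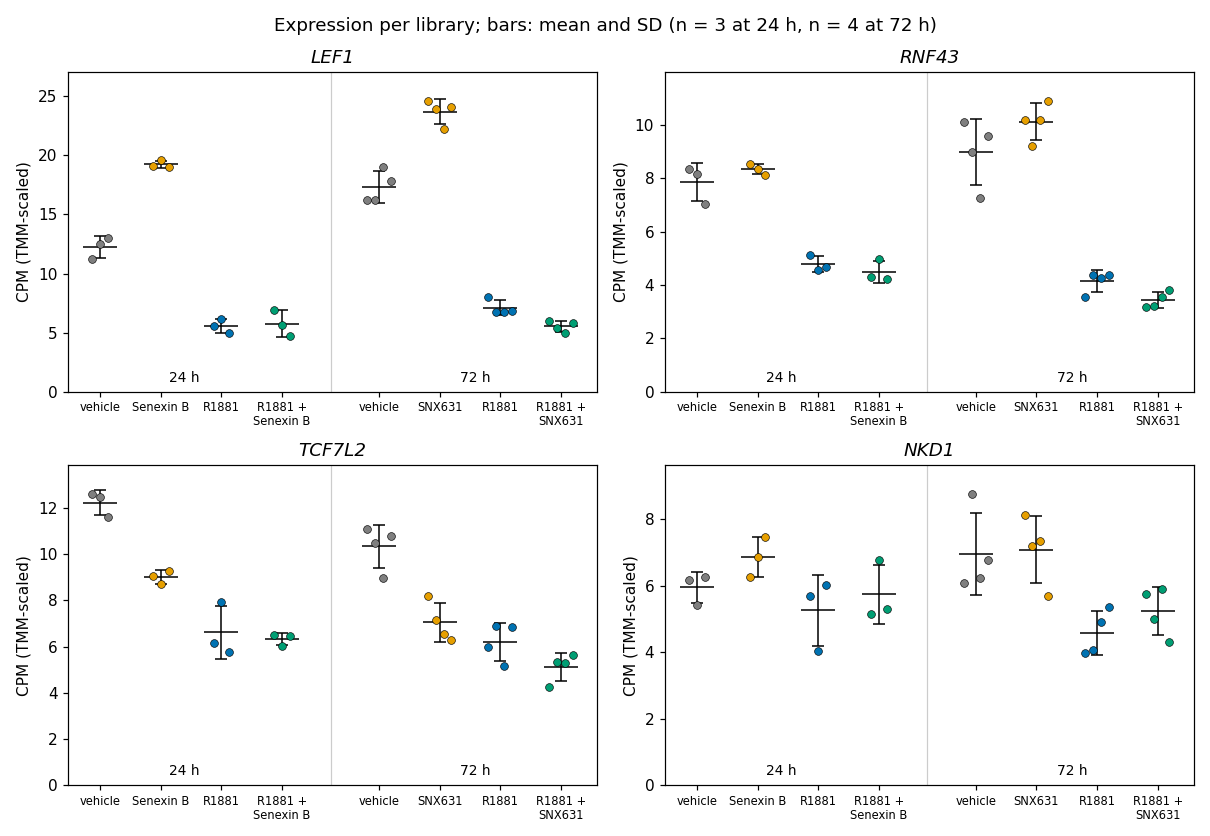
CPM per library (points) of LEF1, RNF43, TCF7L2 and NKD1 in the 8 groups, with the mean and SD of each group as bars. LEF1 with R1881 lies between 4.68 and 8.04 CPM, with or without inhibitor, and below every library without R1881, the lowest of which is at 11.2 CPM.

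The remaining members changed little or in the other direction with R1881. AXIN1, the constitutive scaffold of the destruction complex, was at 36.5, 34.1 and 33.9 CPM in vehicle and at 48.2, 41.7 and 43 CPM with R1881 at 24 h. At 72 h the values were 38, 32.9, 33.4 and 37.7 CPM against 38.4, 40.1, 41.7 and 44 CPM. AXIN1 was higher in both, by a log2 fold change of 0.36 ± 0.0596 (SE; FDR = 5.72e-06) and 0.21 ± 0.0576 (FDR = 0.00163), below the fold limit. ZNRF3, the relative of RNF43, was at 30, 29.3, 29.1 and 26.8 CPM in vehicle and at 24.8, 23.2, 24.1 and 22.7 CPM with R1881 at 72 h, a log2 fold change of -0.28 ± 0.0592 (FDR = 7.93e-05). At 24 h its log2 fold change was -0.080 ± 0.0667 (FDR = 0.313), with groups that overlapped.

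AXIN2, widely used as a readout of Wnt signalling, did not pass the FDR limit with R1881 in either experiment. It was at 5.81, 6.34 and 6.7 CPM in vehicle and at 9.35, 7.84 and 6.99 CPM with R1881 at 24 h, a log2 fold change of 0.32 with a 95% confidence interval from 0.065 to 0.58 (FDR = 0.0298). At 72 h it was at 7.73, 7.62, 8.82 and 7.4 CPM against 8.36, 7.78, 8.9 and 8.24 CPM, with an interval from -0.13 to 0.28 (FDR = 0.536). AXIN2 shares 25.2% of its exon bases with ENSG00000266076 on the same strand, which was at 0.828 to 2.3 CPM, and had fractional counts in 13 libraries. CTNNB1 was at 528 to 533 CPM in vehicle and 493 to 496 CPM with R1881 at 24 h, a log2 fold change of -0.10 ± 0.0289 (SE; FDR = 0.00365). At 72 h CTNNB1 was at 489 to 513 CPM in vehicle and 497 to 506 CPM with R1881, a log2 fold change of 0.0085 with an interval from -0.036 to 0.053 (FDR = 0.756). That value was -0.0939 when libraries were scaled by their totals only.

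Counting the FDR limit alone, 5 of 8 members passed at 24 h, where 48.4% of all genes did, and 6 of 8 at 72 h, where 52.2% did.

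The second comparison asked what androgen did in the presence of a CDK8/19 inhibitor. LEF1 and RNF43 were called lower in both experiments, 2 of 8 members each, where 18.9% of all genes were called at 24 h, 8.9% lower and 9.97% higher, and 22% at 72 h, 12% lower and 10.1% higher. By the FDR limit alone 5 of 8 passed at each time, beside 47.5% and 57.3% of all genes. LEF1 was at 19.1, 19.6 and 19 CPM with Senexin B and at 6.94, 5.63 and 4.68 CPM with Senexin B and R1881. With SNX631 it was at 24.6, 23.9, 22.2 and 24.1 CPM, and with SNX631 and R1881 at 5.98, 5.42, 4.94 and 5.85 CPM. The groups stood far apart, with a log2 fold change of -1.75 ± 0.12 (SE; FDR = 6.05e-15) at 24 h and -2.10 ± 0.0897 (FDR = 2.97e-23) at 72 h, a level 4.28-fold lower.

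RNF43 was at 8.55, 8.36 and 8.14 CPM with Senexin B and at 4.31, 4.96 and 4.21 CPM with both agents. It was at 10.2, 9.21, 10.2 and 10.9 CPM with SNX631 and at 3.19, 3.21, 3.57 and 3.8 CPM with both. The groups did not overlap, and the log2 fold changes were -0.90 ± 0.135 (SE; FDR = 6.19e-07) and -1.55 ± 0.12 (FDR = 8.79e-15). TCF7L2 passed the FDR limit but not the fold limit, at -0.51 ± 0.123 (FDR = 0.00064) and -0.45 ± 0.119 (FDR = 0.00107). AXIN1 was higher by 0.32 ± 0.0582 (FDR = 2.11e-05) and 0.28 ± 0.0528 (FDR = 1.34e-05) on the log2 scale.

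**Figure D2:**
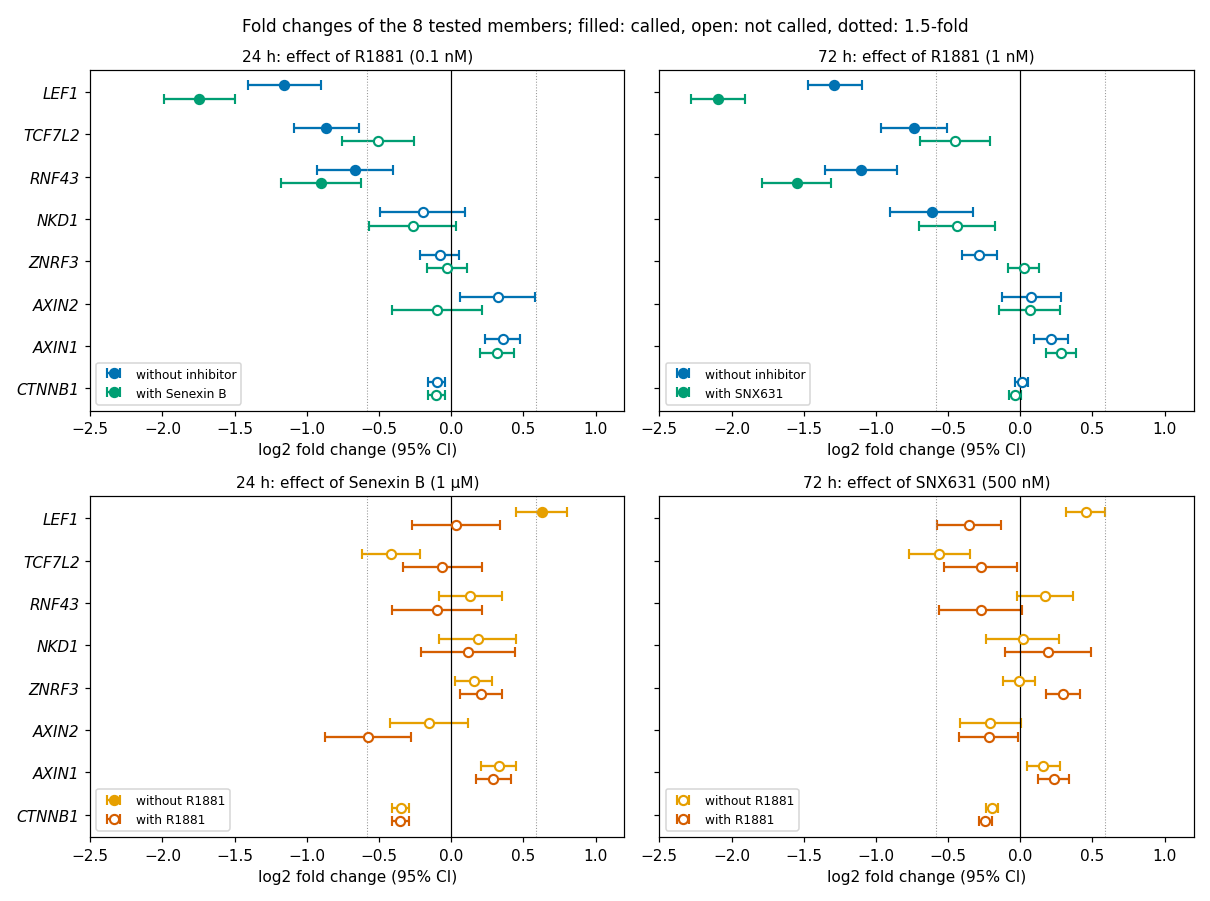
Log2 fold change (x axis) of the 8 tested members for R1881 (top) and for the inhibitor (bottom) at 24 h (left) and 72 h (right), with 95% confidence intervals. Filled points were called, open points were not, and dotted lines mark the fold limit of 1.5. LEF1 lies to the left of the other members under R1881 in all 4 R1881 contrasts, and to the right of zero for the inhibitors without R1881.

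The third comparison asked what the inhibitors did, without and with androgen. LEF1 was the one member called, higher with Senexin B without R1881, where 2.02% of all genes were called higher and 3.79% in either direction. It rose from 11.2, 12.5 and 13 CPM in vehicle to 19.1, 19.6 and 19 CPM, with no overlap and a log2 fold change of 0.63 ± 0.0861 (SE; FDR = 8.05e-07), 1.54-fold. With SNX631 without R1881, LEF1 went from 16.2, 16.2, 19 and 17.8 CPM to 24.6, 23.9, 22.2 and 24.1 CPM, again with no overlap. That difference of 0.45 ± 0.0666 (FDR = 6.82e-07) on the log2 scale, 1.37-fold, was below the fold limit.

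In cells that also received R1881, the LEF1 difference was of another sign or size. It was 0.035 with a 95% confidence interval from -0.27 to 0.34 (FDR = 0.887) for Senexin B, where R1881 alone gave 5.59, 6.17 and 5.01 CPM and both agents 6.94, 5.63 and 4.68 CPM. For SNX631 it was -0.35 ± 0.11 (SE; FDR = 0.00825), from 8.04, 6.79, 6.76 and 6.84 CPM with R1881 to 5.98, 5.42, 4.94 and 5.85 CPM with both, and the groups did not overlap. The difference between the inhibitor's effect with and without R1881 was tested as an interaction. It was -0.81 ± 0.128 (FDR = 1.67e-05) on the log2 scale at 72 h, where LEF1 was the one member called, beside 1.19% of all genes in either direction and 0.821% lower. By the FDR limit alone 2 of 8 members passed there, beside 7.09% of all genes. At 24 h it was -0.59 ± 0.173 (FDR = 0.0433), outside the FDR limit. LEF1 thus ranged over 5.55 CPM with both agents, 7.11 with R1881, 17.3 in vehicle and 23.7 with SNX631 at 72 h, in this order of group means with no overlap between neighbours. At 24 h the order was R1881 at 5.59 CPM, both at 5.75, vehicle at 12.2 and Senexin B at 19.2, and the lowest groups overlapped.

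No member was called for Senexin B with R1881 (3.12% of all genes), SNX631 without R1881 (4.77%) or SNX631 with R1881 (4.12%), nor for the interaction at 24 h (0.577%). With edgeR, 4, 4, 6 and 3 members in that order had an unadjusted p under 0.05, and DESeq2 called 0 in each. The percentages above are for the FDR and fold limits together, and the share of all genes at the unadjusted limit was not counted. By the FDR limit alone, 4 of 8 members passed for Senexin B without R1881 (25.1% of all genes), 3 with R1881 (22.7%), 3 for SNX631 without R1881 (26.9%) and 4 with R1881 (33.1%).

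CTNNB1 was lower with the inhibitors in all 4 contrasts, and below the fold limit in each. At 24 h it was at 530, 533 and 528 CPM in vehicle and at 413, 410 and 426 CPM with Senexin B. With R1881 it was at 496, 496 and 493 CPM and with both at 387, 391 and 385 CPM. At 72 h vehicle was at 500, 489, 490 and 513 CPM and SNX631 at 432, 438, 430 and 438 CPM, R1881 at 497, 506, 500 and 501 CPM and both at 420, 437, 423 and 415 CPM. Every library with an inhibitor was below every library of its experiment without one. The log2 fold changes were -0.35 ± 0.0289 (SE; FDR = 3.29e-11) and -0.35 ± 0.0297 (FDR = 6.53e-11) for Senexin B without and with R1881. They were -0.20 ± 0.022 (FDR = 2.93e-09) and -0.24 ± 0.022 (FDR = 1.59e-11) for SNX631.

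TCF7L2 was lower with the inhibitors where R1881 was absent. It went from 12.6, 12.5 and 11.6 CPM to 9.06, 8.7 and 9.28 CPM with Senexin B, a log2 fold change of -0.42 ± 0.0983 (SE; FDR = 0.000976). With SNX631 it went from 11.1, 10.5, 8.99 and 10.8 CPM to 8.21, 7.14, 6.55 and 6.29 CPM, at -0.56 ± 0.105 (FDR = 4.02e-05), a 1.47-fold difference just below the fold limit. It was called without vehicle replicate 3 (-0.62) or SNX631 replicate 1 (-0.64), which gives 1 member called. With R1881 the differences were -0.061 (FDR = 0.778) and -0.28 (FDR = 0.0722), and the interactions of 0.36 (FDR = 0.264) and 0.28 (FDR = 0.285) did not pass.

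AXIN1 was higher with the inhibitors, at 41.6, 41.4 and 47.1 CPM with Senexin B against 36.5, 34.1 and 33.9 CPM in vehicle, and at 53.9, 53.7 and 54.7 CPM with both agents against 48.2, 41.7 and 43 CPM with R1881. The log2 fold changes were 0.33 ± 0.0583 (SE; FDR = 3.96e-05) and 0.29 ± 0.0596 (FDR = 0.000274). For SNX631 they were 0.16 ± 0.0569 (FDR = 0.0243) without R1881, which did not pass, and 0.23 ± 0.0535 (FDR = 0.000519) with it. AXIN1 thus had its highest group mean with both agents, at 54.1 ± 0.546 CPM (SD, n = 3) and 48.3 ± 2.14 CPM (SD, n = 4).

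Among the feedback genes, AXIN2 went from 9.35, 7.84 and 6.99 CPM with R1881 to 5.75, 4.2 and 6.08 CPM with R1881 and Senexin B, and the groups did not overlap. This log2 fold change of -0.57 ± 0.146 (SE; FDR = 0.00246), 1.49-fold, was just below the fold limit, and AXIN2 was called without R1881 replicate 2 (-0.60) or 3 (-0.68) or without replicate 1 (-0.63) or 3 (-0.68) of the group with both agents, which gives 1 member called. In the other 3 inhibitor contrasts AXIN2 was at -0.15 (FDR = 0.397), -0.21 (FDR = 0.123) and -0.22 (FDR = 0.0792). ZNRF3 went from 24.8, 23.2, 24.1 and 22.7 CPM with R1881 to 28, 27.8, 31.4 and 28.8 CPM with R1881 and SNX631, a log2 fold change of 0.30 ± 0.058 (FDR = 5.5e-05). Without R1881 the ZNRF3 difference was -0.0076 (FDR = 0.935), and the interaction of 0.31 ± 0.0803 passed the FDR limit alone (FDR = 0.00796). For Senexin B the ZNRF3 difference was 0.157 (FDR = 0.0492) without R1881 and 0.209 (FDR = 0.022) with it. The 95% confidence intervals ran from 0.0294 to 0.284 and from 0.0642 to 0.353. Neither passed the FDR limit, and nor did the interaction at 24 h (0.0521, FDR = 0.856). RNF43 and NKD1 did not pass the FDR limit in any inhibitor contrast, with log2 fold changes from -0.27 to 0.17 for RNF43 and from 0.017 to 0.19 for NKD1.

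**Figure D3:**
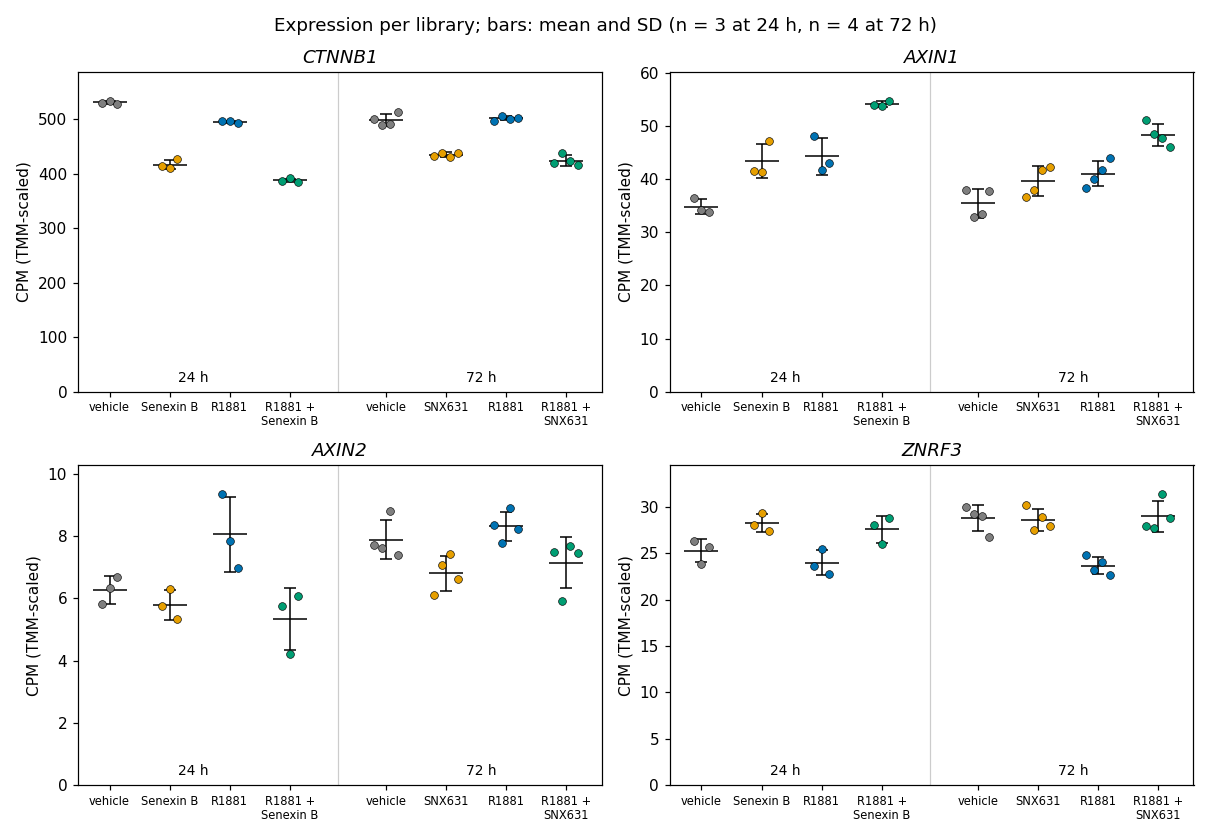
CPM per library (points) of CTNNB1, AXIN1, AXIN2 and ZNRF3 in the 8 groups, with the mean and SD of each group as bars and the y axes starting at 0. CTNNB1 lies between 385 and 438 CPM in all libraries with an inhibitor and between 489 and 533 CPM in all libraries without one.

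The rare TCF factors were described by exact permutation tests over their CPM values, 16 tests in all. TCF7, the factor named for T cells, was at 0.347, 0.152, 0.257 and 0.234 CPM in vehicle and at 0.418, 0.745, 0.801 and 0.526 CPM with R1881 at 72 h. The groups did not overlap, and the two-sided exact permutation p was 0.0286, the smallest that 4 against 4 allows, with a Benjamini-Hochberg value of 0.4 over the 16 tests. At 24 h TCF7 was at 0.469, 0.564 and 0.312 CPM in vehicle and at 0.642, 0.617 and 0.604 CPM with R1881, where the smallest possible exact permutation p of 0.1 was reached. In the edgeR fit without a filter TCF7 was called for R1881 with Senexin B, at a log2 fold change of 1.44 (FDR = 0.00781). With any vehicle or R1881 library left out in turn, TCF7 passed the filter and was called there (FDR = 0.00419 to 0.00572). The same held without Senexin B replicate 1 (FDR = 0.00767) or replicate 3 of the group with both agents (FDR = 0.00155). With Senexin B replicate 2 or 3 left out, TCF7 passed the filter and was not called there (1.53, FDR = 0.0102, and 1.19, FDR = 0.0315). Without replicate 1 or 2 of the group with both agents, TCF7 did not pass the filter and was not tested. In the other fits with a library left out it passed only through these libraries, with 14 and 13 counts (1.18 and 1.24 CPM). Those calls thus rest on the group where TCF7 was highest. The two-sided exact permutation p for R1881 with Senexin B was 0.1, the smallest possible, with a Benjamini-Hochberg value of 0.4. TCF7 was also not called for R1881 without inhibitor at 72 h in the fit without a filter (1.35, FDR = 0.0214). TCF7 overlaps SKP1, a protein-coding gene on the opposite strand at 174 to 208 CPM, in 2.09% of its exon bases. TCF7L1, known mainly as a repressor, was at 0 in all 3 R1881 libraries at 24 h, which over the group allows up to 3 counts, or 0.0887 CPM. It was at 0, 0.282 and 0.142 CPM in the vehicle libraries, from 0, 4 and 5 counts, and the two-sided exact permutation p was 0.4. In the edgeR fit without a filter TCF7L1 was not called in any contrast, with FDR = 0.0501 for R1881 at 24 h and FDR = 0.0159 for R1881 with SNX631, where its log2 fold change was -2.08. The limit covers counting error only.

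Over all 28 libraries, with the mean of each experiment subtracted, the log2 CPM of LEF1 and RNF43 had a Pearson r of 0.938, and those of TCF7L2 and AXIN1 an r of -0.826. CTNNB1 and LEF1 had an r of 0.0406. These values describe libraries that share treatments and depth and carry no test. Among 14899 genes tested in both experiments, the genes whose pattern was most like that of LEF1 were RDX (r = 0.98), which links actin to the membrane, and TP53INP1 (r = 0.979), a stress-response gene. For RNF43 they were TP53INP1 (r = 0.974) and MYH10 (r = 0.973), a non-muscle myosin heavy chain. For TCF7L2 they were EEF1A2 (r = 0.934), a translation elongation factor, and LINC01003 (r = 0.931), and for NKD1 they were ENSG00000275437 (r = 0.84) and ANKRD26 (r = 0.838).

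The wider pathway was read from a list of 113 further Wnt genes, of which 74 were tested in each experiment. With R1881 without inhibitor, 19 of 74 were called at 24 h, 5 higher and 14 lower, and 21 at 72 h, 8 higher and 13 lower, beside the 19% and 19.8% of all genes given above. The list's median log2 fold change was -0.22 and -0.15, beside -0.016 and -0.014 over all genes. With the inhibitor present the counts were 19 (6 higher, 13 lower) and 19 (8 higher, 11 lower), beside 18.9% and 22% of all genes. The counts by role are for R1881 without inhibitor at 24 h and 72 h, beside the same 19% and 19.8%. For ligand and secretion genes they were 5 of 10 and 5 of 11. For receptors they were 6 and 8 of 17, and for cytoplasmic transducers 3 and 2 of 23. For nuclear cofactors they were 3 and 3 of 14, and for further targets 2 and 3 of 9. Of 16 secreted inhibitors and potentiators, 1 was tested at 24 h and none at 72 h.

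The highest of the list with R1881 was the ligand WNT7B, at 23.7 ± 2.05 CPM in vehicle and 86 ± 4.14 CPM with R1881 (SD, n = 3) at 24 h, and at 23.9 ± 2.15 and 131 ± 5.69 CPM (SD, n = 4) at 72 h. The Frizzled receptor FZD8 followed, at 1.59 ± 0.6 and 5.79 ± 0.088 CPM and at 1.83 ± 0.379 and 8.99 ± 1.19 CPM. FZD5, another Frizzled receptor, was at 20.4 ± 1.78 and 55.7 ± 1.34 CPM and at 14.9 ± 1.28 and 66.8 ± 2.7 CPM. All 3 were called higher in both experiments. The lowest was ROR2, a receptor for WNT5A, at 3.8 ± 0.572 CPM in vehicle and 0.147 ± 0.0478 CPM with R1881 at 24 h, and at 3.08 ± 0.2 and 0.157 ± 0.144 CPM at 72 h. The ligand WNT2B was at 1.29 ± 0.388 and 0.265 ± 0.0847 CPM and at 1.26 ± 0.137 and 0.235 ± 0.224 CPM, and the receptor FZD2 at 2.06 ± 0.456 and 0.447 ± 0.169 CPM and at 2.67 ± 0.501 and 1.33 ± 0.231 CPM. All 3 were called lower in both experiments, and ROR2 and WNT2B were down to a few counts per library with R1881. FZD2 was also low with R1881 at 24 h, at 0.345 to 0.642 CPM. At these levels the genes passed the filter through libraries without R1881 alone, and the size of their fold changes is uncertain.

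**Figure D4:**
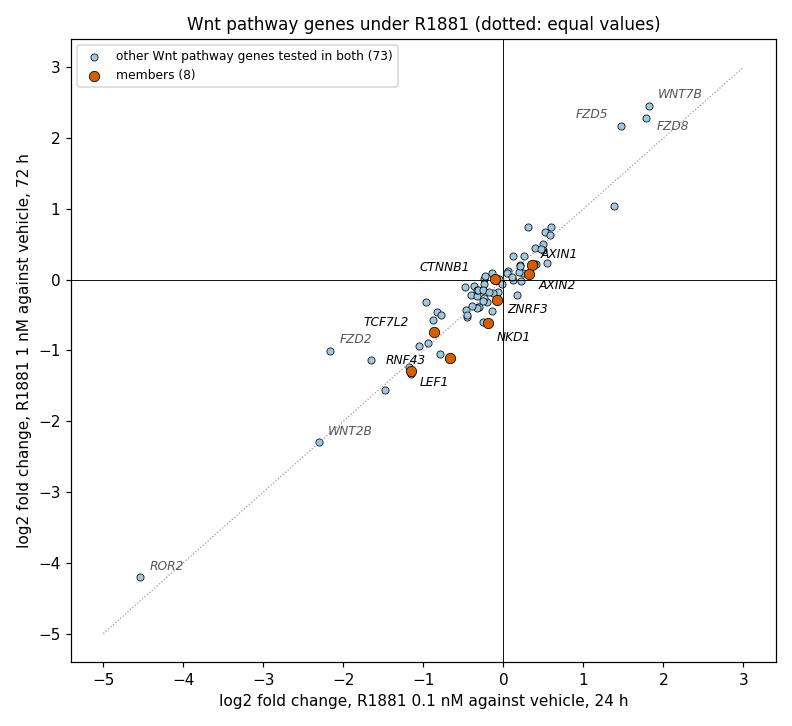
Log2 fold change with R1881 without inhibitor at 24 h (x axis) and 72 h (y axis) of the 8 tested members (orange) and of the other Wnt pathway genes tested in both experiments (blue). LEF1, RNF43 and TCF7L2 lie in the lower left, and the ligand WNT7B and the receptors FZD5 and FZD8 in the upper right.

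With the inhibitors, the counts called of 74 list genes were 2 for Senexin B without R1881, 2 with R1881, 1 for SNX631 without R1881 and 4 with R1881, beside 3.79%, 3.12%, 4.77% and 4.12% of all genes. By the FDR limit alone 18, 17, 18 and 24 of 74 passed, beside 25.1%, 22.7%, 26.9% and 33.1%. The count for Senexin B without R1881 was 1, a ligand gene not called with all libraries, when Senexin B replicate 2 was left out. For Senexin B with R1881 it was 1 without R1881 replicate 2 or 3 or replicate 2 of the group with both agents, 3 without replicate 1 of that group, and 1 by DESeq2. For SNX631 without R1881 it was 0 without vehicle replicate 2 or SNX631 replicate 1 or 3, and 0 by DESeq2. MYC, a transcription factor and reported Wnt target, and the ligand WNT10B were called higher in at least 1 contrast of each experiment. MYC was at 251 ± 3.24 CPM in vehicle and 380 ± 13.8 CPM with Senexin B (SD, n = 3), a 1.51-fold difference at the fold limit whose call was lost without Senexin B replicate 2 and with scaling by library totals only. It was at 224 ± 5.3 CPM with R1881 and 348 ± 7.02 CPM with R1881 and SNX631 (SD, n = 4). WNT10B was at 6.59 ± 0.18 CPM with R1881 and 11.1 ± 1.1 CPM with R1881 and Senexin B, and at 5.02 ± 0.595 and 8.34 ± 0.457 CPM with R1881 and with R1881 and SNX631. In the contrasts not called, MYC was at 282 ± 8.21 CPM with R1881 and 390 ± 0.433 CPM with R1881 and Senexin B. At 72 h MYC was at 261 ± 5.25 CPM in vehicle and 367 ± 12.7 CPM with SNX631. Without R1881, WNT10B was not called, at 7.28 ± 0.112 CPM in vehicle and 9.09 ± 0.423 CPM with Senexin B. At 72 h it was at 6.89 ± 0.538 CPM in vehicle and 7.07 ± 0.93 CPM with SNX631.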

How the data were processed

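Total RNA from 28 LNCaP libraries was sequenced. The authors deposited expected counts per gene, with fractions where a read was shared (16.9% of values above 0), unscaled. The submitters' processing notes name FastQC, cutadapt 2.8, STAR 2.7.2b and featureCounts of Subread 2.0.3, with the builds GRCh38.p13 and GRCm39. The annotation release, counting options and use of strand are not given in the sources used here. Groups came from the sample labels.

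Counts were rounded. Each experiment was fitted alone with 4 group means in edgeR 4.0.16 (R 4.3.3): filterByExpr (minimum count 10, minimum total 15), TMM, quasi-likelihood test, Benjamini-Hochberg over all genes tested, FDR below 0.01 and fold above 1.5. The interaction is the inhibitor effect with R1881 minus that without. DESeq2 1.42.0 and other settings were alternatives. The common biological coefficient of variation was 2.72% at 24 h and 2.38% at 72 h. Scripts were tested on simulated data. Figures used matplotlib 3.10.9. 2 entries that are not human genes, at 0 in every library, were left out.

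The members, the pathway list and the markers were chosen with earlier results of these data known. The text names all 10 members, KLK3, the 3 highest and 3 lowest list genes called alike in both experiments with R1881 or with the inhibitor, and, for each member called, the 2 genes of highest r among those with a mean of at least 1 CPM.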

Additional observations from a re-analysis of the deposited data

Results flagged for a closer look

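Of 40 groups of 4 libraries examined over the 10 members, 3 held a library whose distance from the nearest other was an unusually large part of the group's range, and chance gives about 1 in 20. LEF1 in R1881 replicate 1 at 72 h was at 8.04 CPM, above the next value of 6.84 CPM. RNF43 in the same library was at 3.55 CPM, below the next value of 4.27 CPM. AXIN2 in replicate 2 of the group with R1881 and SNX631 was at 5.92 CPM, below the next value of 7.46 CPM.

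The effect of SNX631 differed between cells without and with R1881 for LEF1, by an interaction of -0.81 on the log2 scale (FDR = 1.67e-05), and for ZNRF3, by 0.31 (FDR = 0.00796). LEF1 was higher with SNX631 without R1881 and lower with it. ZNRF3 was higher with SNX631 only in the comparison with R1881.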

How the results depend on the processing

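With DESeq2 size factors, the DESeq2 Wald test, no filter on low counts and all 28 libraries in 1 fit, no member gained or lost a call in any of the 10 contrasts among the 8 members tested. The replicate block also changed no call, with 3, 2, 1, 0 and 0 members called at 24 h and 4, 2, 0, 0 and 1 at 72 h. Deviations of same-numbered libraries correlated at -0.0142 to 0.0742 at 24 h and -0.0551 to 0.0737 at 72 h. Their medians were 0.0107 and -0.00956, beside -0.0127 and 0.000182 for libraries of different number. Whether libraries were paired by number cannot be told from such low values. Scaling by library totals only shifted the median of all genes by -0.10 and -0.11 (log2) for R1881 without and with SNX631 at 72 h. Under it 1 member was called for Senexin B with R1881 (AXIN2) and 1 for SNX631 without R1881 (TCF7L2). Under it these log2 fold changes changed sign: LEF1 (-0.000784) for Senexin B with R1881, CTNNB1 (0.000595) in the interaction at 24 h, CTNNB1 (-0.0939) and AXIN2 (-0.0255) for R1881 at 72 h, AXIN2 (-0.0438) and ZNRF3 (-0.0857) for R1881 with SNX631, and NKD1 (-0.0103) for SNX631 without R1881. Of these, CTNNB1 alone passed the FDR limit (FDR = 0.000257). Without a filter, CTNNB1 in the interaction at 24 h (0.000562) and ZNRF3 for SNX631 without R1881 (0.000212) changed sign. Under an FDR limit of 0.05 with no fold limit, the members called were 6, 5, 5, 4 and 1 at 24 h. The order is R1881 without and with Senexin B, Senexin B without and with R1881 and the interaction. Of all 15948 genes, 9307, 9157, 5717, 5257 and 719 were called in that order. At 72 h, beyond R1881 without inhibitor, 5, 4, 4 and 2 members were called. Of all 16074 genes, 10562, 5864, 6873 and 2034 were called there.

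With libraries left out in turn, the members called ranged from 0 to 1 for Senexin B with R1881 and from 0 to 1 for SNX631 without R1881. Log2 fold changes that crossed 0 at 24 h were AXIN2 (-0.20 to 0.037) and ZNRF3 (-0.058 to 0.012) for R1881 with Senexin B, LEF1 (-0.14 to 0.18), TCF7L2 (-0.16 to 0.081) and NKD1 (-0.052 to 0.22) for Senexin B with R1881, and CTNNB1 (-0.031 to 0.0029), AXIN1 (-0.097 to 0.011) and NKD1 (-0.24 to 0.033) in the interaction. At 72 h they were CTNNB1 for R1881 (-0.0033 to 0.021), ZNRF3 for R1881 with SNX631 (-0.023 to 0.046), NKD1 (-0.052 to 0.15) and ZNRF3 (-0.042 to 0.013) for SNX631 without R1881 and AXIN2 in the interaction (-0.066 to 0.071). None of these had passed a test. The cause was not tested. Depth limits TCF7 and TCF7L1, which had at most 14 and 9 counts.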
